A study of Mus musculus with 9 samples.

Results

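The genes described here are 35 mouse genes of mitosis and the G2/M transition, a class controlled by the DREAM complex, a repressor of cell-cycle genes. They were taken by name, as gene symbols of the deposited count tables, with no threshold on a measured value, but with earlier results of these data known. All 35 were among the 25239 gene symbols of the tables, and all 35 were among the 14125 genes with enough reads for a test. By role they were 10 genes for mitotic kinases, B-type cyclins, a CDK phosphatase and the factor Foxm1, 11 genes for the spindle checkpoint, the anaphase-promoting complex (APC/C) and the kinetochore, 12 genes for spindle motors and microtubule proteins, and 2 genes for proteins of the chromosomes.

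RNA was sequenced from 3 lines of E14 mouse embryonic stem cells (ESCs), each with 3 libraries. The control line was *Rbbp4*+/+, the *Rbbp4* Ins/Ins line carries a 3-nucleotide insertion on both alleles of *Rbbp4*, and the *Rbbp4* Ins/Del line combines an allele with this insertion and an allele that lacks 18 nucleotides. All lines carry the strain label 12910la and were grown in serum medium with leukemia inhibitory factor, with no treatment. Each mutant line is a single clone from the same Cas9 guide, and both changes keep the reading frame, so both can still encode RBBP4, and an effect of the mutation cannot be told apart from a difference between clones.

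RBBP4 is a histone-binding WD40 protein found in several chromatin complexes, among them MuvB, where it sits beside LIN9, LIN37, LIN52 and LIN54. MuvB joins p130 or p107, E2F4 and DP to form DREAM, which holds mitotic genes down in resting cells. In proliferating cells the same core instead binds B-MYB and then FOXM1 and activates mitotic genes in late S and G2 phase. LIN54 contacts a short promoter element called the cell cycle genes homology region (CHR), which often lies near CCAAT boxes bound by NF-Y. ESCs divide rapidly, with a short G1 phase, and express mitotic genes at high levels.

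The values are reads counted per gene by the authors, scaled here between libraries with the TMM method of edgeR and given as normalized counts. The libraries held 15838064 to 21366868 counted reads. *Rbbp4* itself had normalized counts of 9932, 9965, and 10117 across the controls, of 5485, 5551, and 5776 across *Rbbp4* Ins/Ins libraries, and of 10129, 10344, and 10603 across those of *Rbbp4* Ins/Del. Its RNA was thus lower in *Rbbp4* Ins/Ins alone. RNA does not give the level of the protein, and by Western blot the paper reports less of the mutant RBBP4 proteins than in controls. Each mutant line was tested against the control with the quasi-likelihood test of edgeR, and the Benjamini-Hochberg adjustment covered all 14125 tested genes. A gene is said to have risen or fallen where this adjusted p (written edgeR adjusted p) was at most 0.01. The labels do not say that libraries of a line came from separate cultures, so p-values measure the spread between these libraries. In bulk RNA, fewer cells in G2 and mitosis and less RNA per such cell cannot be told apart.

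The mitotic genes changed in both directions, by small amounts, and more of them fell than rose. In *Rbbp4* Ins/Ins 17 of the 35 fell and 6 rose, where 29.4% of all tested genes fell and 29.0% rose. In *Rbbp4* Ins/Del 16 fell and 7 rose, against 31.9% and 30.6% of all tested genes. Both mutants shared 15 genes that fell, or 42.9% of the 35, and 5 that rose, or 14.3%, while 26.7% of all tested genes fell in both and 25.6% rose in both. The 15 shared genes that fell were *Cdkn3*, *Dlgap5*, *Mki67*, *Cenpf*, *Cdc20*, *Prc1*, *Ccnb2*, *Kif20a*, *Bub1*, *Ube2c*, *Foxm1*, *Kif2c*, *Ccnb1*, *Nusap1*, and *Kif11*. The 5 that rose were *Hmmr*, *Birc5*, *Ttk*, *Anln*, and *Ndc80*. Another 9 genes passed the limit in neither mutant and 6 in a single mutant. Both mutants were measured against the same control libraries, so their changes are not independent of each other.

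The changes were small, in the median smaller than those of all tested genes. The median log2 fold change of the 35 genes was -0.086 for *Rbbp4* Ins/Ins and -0.089 for *Rbbp4* Ins/Del, where the median of all tested genes was 0.004 and -0.011. Without control library 2 or without library 1 of *Rbbp4* Ins/Ins, the median in *Rbbp4* Ins/Ins was -0.061 and -0.046. The median absolute log2 fold change was 0.17 and 0.18, against 0.30 and 0.34 for all tested genes. This comparison was not matched for expression, and the median count was 2853 for the 35 genes and 386 for all tested genes. *Cdkn3* was the only gene of the 35 that changed by more than 2-fold, in either mutant. In 15 of the 35 genes all 6 mutant libraries lay below all 3 control libraries, and in 8 all 6 lay above, where 30.6% and 30.4% of all tested genes were separated in these ways. Summed over the 35 genes, the level was 7211 to 7311 CPM (the number of reads scaled to a fixed library size) in the control libraries, 6643 to 6785 for *Rbbp4* Ins/Ins and 6761 to 6823 for *Rbbp4* Ins/Del, and the mutants did not overlap the control.

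**Figure D1:**
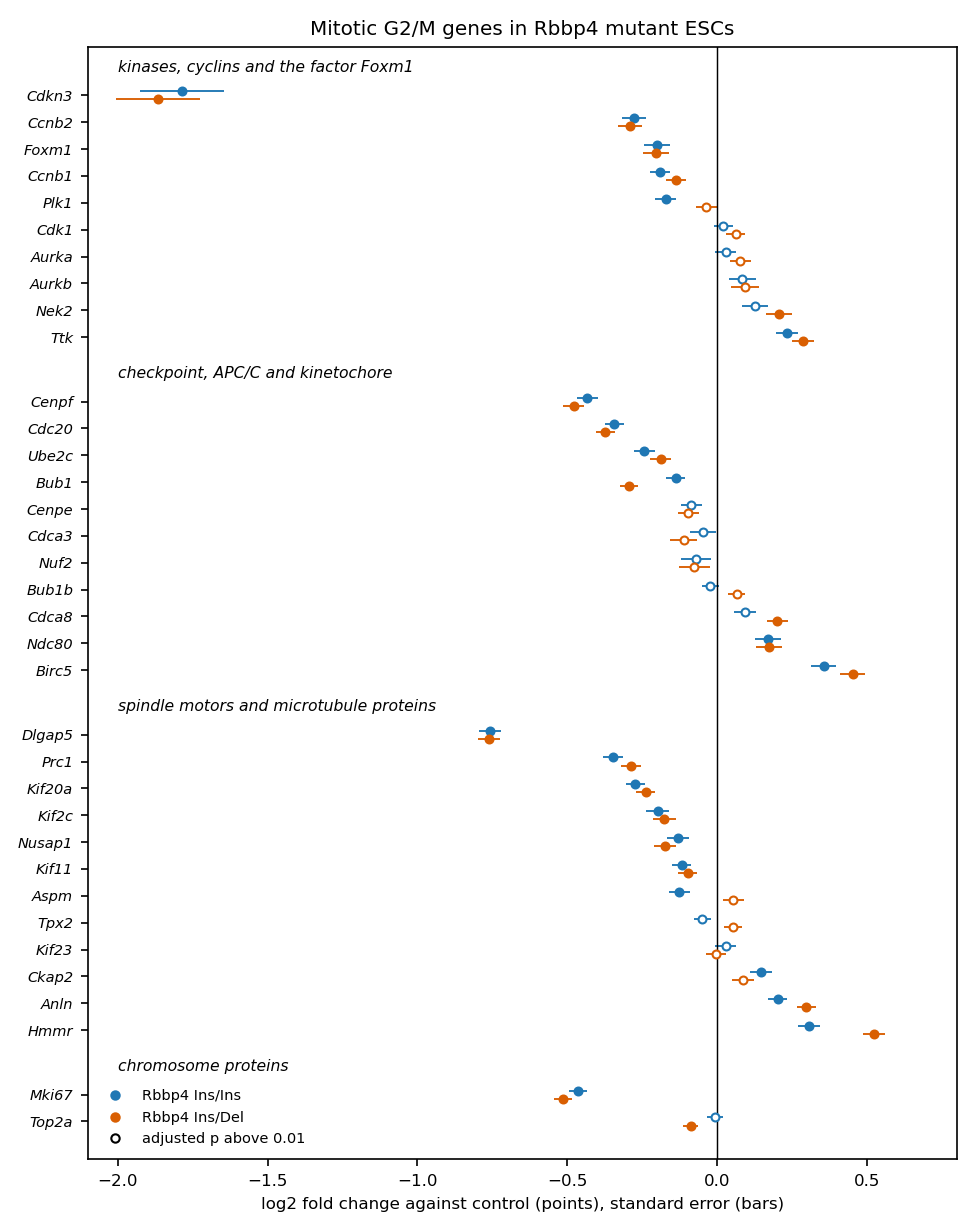
Log2 fold change against control for the 35 mitotic genes, grouped by role, with its standard error as a bar. Filled points had an adjusted p of at most 0.01, open points did not. *Cdkn3* lies alone near -1.8 in both mutants, *Dlgap5* near -0.76, and the other genes lie between -0.51 and 0.52.

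Promoter sequences were at hand for 30 of the 35 genes, as RefSeq windows of 300 bases on GRCm38.p6 from 250 bases before the start of transcription to 50 bases after it. Both strands were searched for the CHR letters TTTGAA or TTCGAA and for the CCAAT box letters CCAAT. The 6 promoters below were picked as examples, by no further rule, from genes that fell or rose in both mutants and hold both elements. *Bub1*, *Kif11*, *Prc1*, *Ttk*, and *Ube2c* also met these conditions and are not shown. They are printed 5′ to 3′ in the direction of the gene, and capitals mark CHR letters (TTTGAA, or TTCAAA on the other strand) and CCAAT boxes (CCAAT, or ATTGG on the other strand).
Ccnb2 promoter, chr9:70421505-70421804, minus strand: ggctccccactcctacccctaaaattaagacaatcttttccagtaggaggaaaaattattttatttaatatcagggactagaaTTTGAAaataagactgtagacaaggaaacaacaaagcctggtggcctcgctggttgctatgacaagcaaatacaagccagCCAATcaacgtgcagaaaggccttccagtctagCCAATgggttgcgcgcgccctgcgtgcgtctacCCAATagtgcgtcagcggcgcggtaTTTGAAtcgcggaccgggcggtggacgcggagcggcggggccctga
Cdc20 promoter, chr4:118437294-118437593, minus strand: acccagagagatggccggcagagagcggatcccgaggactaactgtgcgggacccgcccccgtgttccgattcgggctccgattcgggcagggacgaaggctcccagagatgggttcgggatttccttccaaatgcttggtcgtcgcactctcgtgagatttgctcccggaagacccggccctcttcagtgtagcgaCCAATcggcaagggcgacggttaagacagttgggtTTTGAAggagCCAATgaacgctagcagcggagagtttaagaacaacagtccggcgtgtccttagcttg
Mki67 promoter, chr7:135716330-135716629, minus strand: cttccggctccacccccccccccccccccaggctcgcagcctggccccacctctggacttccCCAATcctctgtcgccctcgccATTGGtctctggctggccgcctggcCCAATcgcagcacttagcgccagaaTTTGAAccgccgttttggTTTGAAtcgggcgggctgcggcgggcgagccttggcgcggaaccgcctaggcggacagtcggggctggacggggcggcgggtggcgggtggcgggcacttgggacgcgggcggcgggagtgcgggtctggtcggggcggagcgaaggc
Cenpf promoter, chr1:189688037-189688336, minus strand: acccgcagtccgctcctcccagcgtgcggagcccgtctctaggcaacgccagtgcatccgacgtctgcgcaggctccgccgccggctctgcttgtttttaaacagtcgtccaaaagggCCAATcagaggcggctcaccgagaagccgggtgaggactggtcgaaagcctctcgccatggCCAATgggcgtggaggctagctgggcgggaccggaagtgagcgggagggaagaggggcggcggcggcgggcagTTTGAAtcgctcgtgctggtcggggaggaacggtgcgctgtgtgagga
Hmmr promoter, chr11:40733388-40733687, minus strand: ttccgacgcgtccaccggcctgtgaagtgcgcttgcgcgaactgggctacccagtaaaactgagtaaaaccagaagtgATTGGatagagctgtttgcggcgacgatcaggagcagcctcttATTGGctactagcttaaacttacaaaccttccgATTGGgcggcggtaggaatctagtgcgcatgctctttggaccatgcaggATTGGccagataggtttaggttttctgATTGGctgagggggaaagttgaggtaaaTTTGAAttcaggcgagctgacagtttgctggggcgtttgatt
Cdkn3 promoter, chr14:46760291-46760590, plus strand: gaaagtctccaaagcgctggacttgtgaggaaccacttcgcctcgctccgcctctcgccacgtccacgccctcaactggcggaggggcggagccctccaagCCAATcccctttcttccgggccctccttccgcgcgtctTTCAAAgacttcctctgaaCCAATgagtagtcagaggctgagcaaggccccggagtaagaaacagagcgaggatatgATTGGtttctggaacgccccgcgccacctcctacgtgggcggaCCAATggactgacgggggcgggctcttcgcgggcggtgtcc
Among the genes that fell, *Cdc20* held its CHR letters 18 bases before the start, *Cenpf* from transcribed base 3, and *Ccnb2* from transcribed base 5 with another 167 bases before the start. *Mki67* held a pair, 116 and 98 bases before the start. *Hmmr*, which rose, held its CHR from transcribed base 9, with 5 CCAAT boxes upstream of it. *Cdkn3*, which fell most, held its only CHR letters 111 bases before the start and on the other strand.

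CHR letters were found in 25 of the 31 windows of these genes (80.6%), where 19.2% of all 32851 windows held them. Within 50 bases of the start they stood in 67.7% of the windows of the mitotic genes and 5.31% of all windows. CCAAT boxes stood in 80.6% of the windows of the mitotic genes and 37.4% of all windows, and both elements together in 71.0% and 7.52%. In 1 window of the mitotic genes the motifs overlapped each other. Genes with and without CHR letters changed in both directions. Of the 24 genes in which CHR letters were found, 10 fell and 4 rose in both mutants, with median log2 fold changes of -0.083 and -0.062. Of the 6 in which none were found (*Birc5*, *Ccnb1*, *Cenpe*, *Nek2*, *Nuf2*, and *Nusap1*), 2 fell and 1 rose, with medians of -0.078 and -0.086. Of all tested genes, 26.7% fell and 25.6% rose in both mutants. Of the 24 genes in which CCAAT boxes were found, 10 fell and 2 rose in both mutants, with medians of -0.10 and -0.093. Of the 6 without them (*Anln*, *Birc5*, *Kif2c*, *Ndc80*, *Nuf2*, and *Nusap1*), 2 fell and 3 rose, with medians of 0.05 and 0.048. The differences between these classes were not tested. These are matches of letters, and binding of DREAM was not measured in these libraries.

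The B-type cyclins fell in both mutants, while the kinase that they activate did not pass the limit. *Ccnb2* had normalized counts of 2344, 2401, and 2234 across the controls, of 1914, 1847, and 1993 across *Rbbp4* Ins/Ins libraries, and of 1925, 1825, and 1961 across those of *Rbbp4* Ins/Del. Every mutant library was below every control library. *Ccnb2* had a log2 fold change of -0.28 (standard error 0.039, edgeR adjusted p = 6e-08) for *Rbbp4* Ins/Ins and -0.29 (standard error 0.039, edgeR adjusted p = 2.1e-08) for *Rbbp4* Ins/Del. *Ccnb1* (chr13:100778650-100786570, minus strand), whose protein drives entry into mitosis, had normalized counts of 5089, 4856, and 4828 across the controls, of 4302, 4226, and 4412 across *Rbbp4* Ins/Ins libraries, and of 4266, 4561, and 4607 across those of *Rbbp4* Ins/Del. The groups did not overlap, although the gap to the highest mutant library was smaller than for *Ccnb2*. The estimate for *Ccnb1* was a log2 fold change of -0.19 (standard error 0.033, edgeR adjusted p = 2.7e-06) for *Rbbp4* Ins/Ins and -0.14 (standard error 0.033, edgeR adjusted p = 2.8e-04) for *Rbbp4* Ins/Del. Without library 1 of *Rbbp4* Ins/Del the second estimate was -0.10, with an edgeR adjusted p of 0.010 that was just above the limit. *Cdk1*, the mitotic cyclin-dependent kinase, had normalized counts of 3162, 3157, and 3093 across the controls, of 3096, 3280.4, and 3181 across *Rbbp4* Ins/Ins libraries, and of 3261, 3234, and 3339 across those of *Rbbp4* Ins/Del. The control libraries lay within or just below the range of the mutants. For *Cdk1*, the log2 fold change was 0.021 (standard error 0.033, edgeR adjusted p = 0.59) for *Rbbp4* Ins/Ins and 0.062 (standard error 0.032, edgeR adjusted p = 0.084) for *Rbbp4* Ins/Del, and neither passed the limit.

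The mitotic kinases did not move as a group. *Plk1*, which acts in centrosome maturation and mitotic entry, had normalized counts of 3185, 3169, and 2969.7 across the controls, of 2822, 2700.3, and 2760.2 across *Rbbp4* Ins/Ins libraries, and of 2979.9, 2981, and 3146 across those of *Rbbp4* Ins/Del. It was below the control in all libraries of *Rbbp4* Ins/Ins and overlapped the control in *Rbbp4* Ins/Del. *Plk1* had a log2 fold change of -0.17 (standard error 0.035, edgeR adjusted p = 4.9e-05) for *Rbbp4* Ins/Ins and -0.036 (standard error 0.035, edgeR adjusted p = 0.36) for *Rbbp4* Ins/Del. *Aurka*, a kinase of the centrosomes and spindle poles, had normalized counts of 2053, 2138, and 2082 across the controls, of 2126, 2110.2, and 2159 across *Rbbp4* Ins/Ins libraries, and of 2168, 2247, and 2194 across those of *Rbbp4* Ins/Del. The control and *Rbbp4* Ins/Ins libraries overlapped, and the *Rbbp4* Ins/Del libraries lay slightly higher. The estimate for *Aurka* was a log2 fold change of 0.028 (standard error 0.035, edgeR adjusted p = 0.49) for *Rbbp4* Ins/Ins and 0.077 (standard error 0.035, edgeR adjusted p = 0.052) for *Rbbp4* Ins/Del, with neither past the limit. *Aurkb*, the kinase of the chromosomal passenger complex, had log2 fold changes of 0.084 (edgeR adjusted p = 0.11) for *Rbbp4* Ins/Ins and 0.092 (edgeR adjusted p = 0.075) for *Rbbp4* Ins/Del.

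Both remaining kinases had estimates above 0. *Ttk*, the checkpoint kinase also called MPS1, had normalized counts of 2489.5, 2417, and 2572 across the controls, of 2785, 2989, and 3021 across *Rbbp4* Ins/Ins libraries, and of 2971, 3036, and 3111 across those of *Rbbp4* Ins/Del. All 6 mutant libraries were above all controls. For *Ttk*, the log2 fold change was 0.23 (standard error 0.036, edgeR adjusted p = 5.2e-07) for *Rbbp4* Ins/Ins and 0.29 (standard error 0.036, edgeR adjusted p = 5.8e-09) for *Rbbp4* Ins/Del. *Nek2*, a kinase of centrosome separation, had a mean normalized count of 1536 ± 93.1 (SD, n = 3) for the control, 1680.0 ± 47.5 for *Rbbp4* Ins/Ins, and 1773 ± 85 for *Rbbp4* Ins/Del. All mutant libraries were above all controls here too, but the lowest of them by little. *Nek2* had a log2 fold change of 0.13 (standard error 0.044, edgeR adjusted p = 0.011) for *Rbbp4* Ins/Ins and 0.21 (standard error 0.044, edgeR adjusted p = 6.7e-05) for *Rbbp4* Ins/Del, so that it rose in *Rbbp4* Ins/Del alone by the limit used. The first of these passed the limit without control library 1 (edgeR adjusted p = 0.00097), without library 1 of *Rbbp4* Ins/Ins (0.0083) or without library 3 of *Rbbp4* Ins/Del (0.0085).

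Foxm1 is the forkhead factor that joins MuvB and B-MYB at mitotic promoters. *Foxm1* had normalized counts of 1574, 1647, and 1479 across the controls, of 1392, 1356, and 1339 across *Rbbp4* Ins/Ins libraries, and of 1387, 1301, and 1400.0 across those of *Rbbp4* Ins/Del. The mutant libraries were all below the controls. The estimate for *Foxm1* was a log2 fold change of -0.20 (standard error 0.044, edgeR adjusted p = 1.1e-04) for *Rbbp4* Ins/Ins and -0.20 (standard error 0.044, edgeR adjusted p = 8.4e-05) for *Rbbp4* Ins/Del. *Foxm1* shares 2.5% of its exonic length with *Tex52* on the same strand.

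*Cdkn3* (chr14:46760541-46771669, plus strand) encodes a phosphatase of cyclin-dependent kinases and changed most of the 35 genes. It had normalized counts of 151, 173, and 163 across the controls, of 49.6, 50.8, and 40.2 across *Rbbp4* Ins/Ins libraries, and of 48, 41.5, and 44 across those of *Rbbp4* Ins/Del. The mutant libraries lay far below the control libraries and overlapped each other. By the fit it was 3.44-fold lower in *Rbbp4* Ins/Ins and 3.64-fold lower in *Rbbp4* Ins/Del. For *Cdkn3*, the log2 fold change was -1.78 (standard error 0.14, edgeR adjusted p = 4.5e-14) for *Rbbp4* Ins/Ins and -1.86 (standard error 0.14, edgeR adjusted p = 1.6e-14) for *Rbbp4* Ins/Del. *Cdkn3* was also the gene of the 35 with the fewest reads, and its coefficient of variation was the highest of them in all 3 lines, at 6.64% for the control, 12.4% for *Rbbp4* Ins/Ins and 7.42% for *Rbbp4* Ins/Del.

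**Figure D2:**
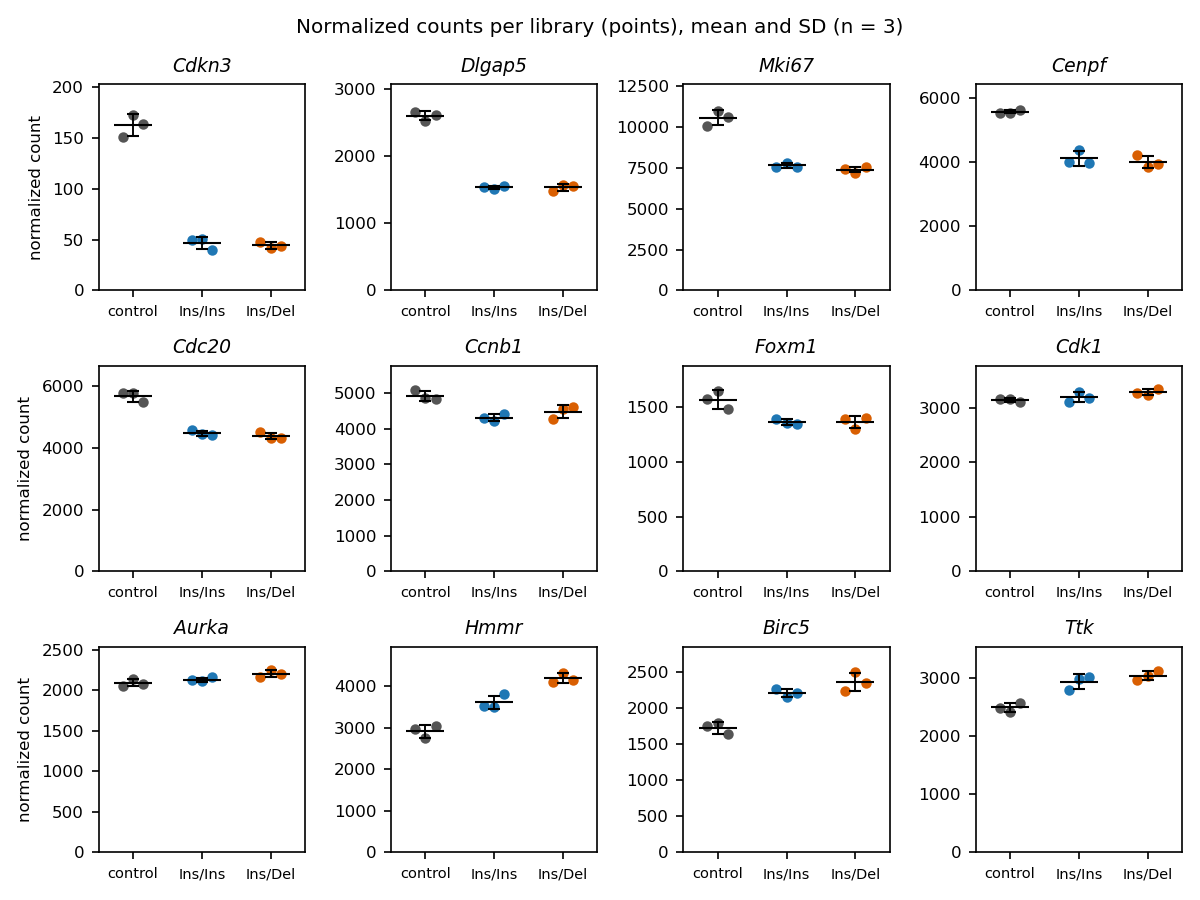
Normalized counts of 12 mitotic genes in each of the 9 libraries (points), with the mean and SD of each line (black bars, n = 3) on axes that start at 0. The mutant libraries lie below the control for *Cdkn3*, *Dlgap5*, *Mki67*, *Cenpf*, *Cdc20*, *Ccnb1*, and *Foxm1*, above it for *Hmmr*, *Birc5*, and *Ttk*, and next to it for *Cdk1* and *Aurka*.

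Among the 11 checkpoint, APC/C and kinetochore genes, 4 fell in both mutants (36.4%) and 2 rose in both (18.2%), beside 26.7% and 25.6% of all tested genes. *Cdc20*, the activator of the APC/C and the gene of the 35 with the most reads per kilobase, had normalized counts of 5754, 5778, and 5467 across the controls, of 4557, 4446, and 4397 across *Rbbp4* Ins/Ins libraries, and of 4498, 4311, and 4322 across those of *Rbbp4* Ins/Del. All mutant libraries lay below all controls. *Cdc20* had a log2 fold change of -0.34 (standard error 0.031, edgeR adjusted p = 1.6e-12) for *Rbbp4* Ins/Ins and -0.37 (standard error 0.031, edgeR adjusted p = 1.3e-13) for *Rbbp4* Ins/Del. *Cenpf*, which encodes a large coiled-coil protein of the kinetochore, had normalized counts of 5524, 5529, and 5603 across the controls, of 3985, 4379.5, and 3971 across *Rbbp4* Ins/Ins libraries, and of 4198, 3842, and 3922 across those of *Rbbp4* Ins/Del. The highest mutant library, in *Rbbp4* Ins/Ins, was still well below the lowest control. The estimate for *Cenpf* was a log2 fold change of -0.43 (standard error 0.035, edgeR adjusted p = 6.2e-14) for *Rbbp4* Ins/Ins and -0.48 (standard error 0.035, edgeR adjusted p = 3.5e-15) for *Rbbp4* Ins/Del. *Ube2c*, the ubiquitin-conjugating enzyme of the APC/C, had a mean normalized count of 3352 ± 180 (SD, n = 3) for the control, 2831 ± 68.9 for *Rbbp4* Ins/Ins, and 2944 ± 57.1 for *Rbbp4* Ins/Del. It fell in both, with log2 fold changes of -0.24 (edgeR adjusted p = 1.6e-07) for *Rbbp4* Ins/Ins and -0.19 (edgeR adjusted p = 1.3e-05) for *Rbbp4* Ins/Del. Exons of *Tnnc2* on the opposite strand overlap 22.77% of the exonic length of *Ube2c*, and *Tnnc2* had a mean of at most 4.36 normalized counts in any line.

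*Bub1* and *Bub1b*, the checkpoint genes for BUB1 and BUBR1, did not move alike. *Bub1* had normalized counts of 5382, 5035, and 5373 across the controls, of 4728, 4783, and 4831 across *Rbbp4* Ins/Ins libraries, and of 4298, 4290.4, and 4299.6 across those of *Rbbp4* Ins/Del. The 3 lines were separated from each other, with *Rbbp4* Ins/Del lowest. For *Bub1*, the log2 fold change was -0.14 (standard error 0.031, edgeR adjusted p = 1.3e-04) for *Rbbp4* Ins/Ins and -0.29 (standard error 0.031, edgeR adjusted p = 7.3e-11) for *Rbbp4* Ins/Del. *Bub1b* had a mean normalized count of 4941 ± 65.6 (SD, n = 3) for the control, 4863 ± 83.7 for *Rbbp4* Ins/Ins, and 5168 ± 65.7 for *Rbbp4* Ins/Del. Its log2 fold changes were -0.023 (edgeR adjusted p = 0.5) for *Rbbp4* Ins/Ins and 0.065 (edgeR adjusted p = 0.048) for *Rbbp4* Ins/Del, and neither passed the limit.

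The 3 genes of the chromosomal passenger complex among the 35 had estimates above 0. *Birc5* (chr11:117849251-117855743, plus strand), which encodes survivin, had normalized counts of 1748, 1791, and 1637 across the controls, of 2264, 2148, and 2203 across *Rbbp4* Ins/Ins libraries, and of 2237, 2491, and 2351 across those of *Rbbp4* Ins/Del. Every mutant library was above every control library. *Birc5* had a log2 fold change of 0.35 (standard error 0.041, edgeR adjusted p = 9.1e-10) for *Rbbp4* Ins/Ins and 0.45 (standard error 0.041, edgeR adjusted p = 1.3e-12) for *Rbbp4* Ins/Del. *Cdca8*, which encodes borealin of the same complex, had a mean normalized count of 2030.0 ± 17.1 (SD, n = 3) for the control, 2165 ± 26.5 for *Rbbp4* Ins/Ins, and 2333 ± 64.8 for *Rbbp4* Ins/Del. Its log2 fold changes were 0.093 (edgeR adjusted p = 0.021) for *Rbbp4* Ins/Ins and 0.20 (edgeR adjusted p = 4.7e-06) for *Rbbp4* Ins/Del, so that it rose in *Rbbp4* Ins/Del alone by the limit used. The passenger kinase gene *Aurkb*, given above, passed the limit in neither mutant. *Incenp*, the scaffold gene of the complex, is not among the 35 and is named after its values were seen, and it fell in both, with log2 fold changes of -0.14 (edgeR adjusted p = 1.7e-04) for *Rbbp4* Ins/Ins and -0.092 (edgeR adjusted p = 0.008) for *Rbbp4* Ins/Del. The genes of this complex thus had changes in both directions.

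The outer kinetochore genes *Ndc80* and *Nuf2*, whose products bind microtubules within a single complex, had estimates of opposite sign. *Ndc80* showed a mean normalized count of 1359 ± 24.8 (SD, n = 3) for the control, 1531 ± 39.6 for *Rbbp4* Ins/Ins, and 1532 ± 79.2 for *Rbbp4* Ins/Del. It rose in both, with log2 fold changes of 0.17 (edgeR adjusted p = 6.5e-04) for *Rbbp4* Ins/Ins and 0.17 (edgeR adjusted p = 4.9e-04) for *Rbbp4* Ins/Del. Without library 2 of *Rbbp4* Ins/Del the second estimate was 0.14, with an edgeR adjusted p of 0.0119, above the limit. *Nuf2* had log2 fold changes of -0.071 (edgeR adjusted p = 0.21) for *Rbbp4* Ins/Ins and -0.076 (edgeR adjusted p = 0.18) for *Rbbp4* Ins/Del, and neither passed the limit. *Cenpe*, a kinetochore motor, had log2 fold changes of -0.086 (edgeR adjusted p = 0.031) for *Rbbp4* Ins/Ins and -0.097 (edgeR adjusted p = 0.014) for *Rbbp4* Ins/Del. Without library 2 of *Rbbp4* Ins/Ins both of these passed the limit, with edgeR adjusted p-values of 0.00269 and 0.00972, and without library 1 of *Rbbp4* Ins/Del the second did (0.00662). *Cdca3*, a substrate of the APC/C, had log2 fold changes of -0.047 (edgeR adjusted p = 0.34) for *Rbbp4* Ins/Ins and -0.11 (edgeR adjusted p = 0.022) for *Rbbp4* Ins/Del.

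Of the 12 spindle genes, 6 fell in both mutants (50%) and 2 rose in both (16.7%), beside the same 26.7% and 25.6% of all tested genes. *Dlgap5* (chr14:47387779-47418407, minus strand), which encodes a protein that stabilises spindle microtubules near chromosomes, had normalized counts of 2661, 2531, and 2620.0 across the controls, of 1546, 1518, and 1555 across *Rbbp4* Ins/Ins libraries, and of 1484, 1579, and 1550.4 across those of *Rbbp4* Ins/Del. The mutant libraries lay close together and far below the control. The estimate for *Dlgap5* was a log2 fold change of -0.76 (standard error 0.037, edgeR adjusted p = 2.1e-20) for *Rbbp4* Ins/Ins and -0.76 (standard error 0.037, edgeR adjusted p = 1.6e-20) for *Rbbp4* Ins/Del. *Prc1*, which encodes the crosslinker of the midzone, had normalized counts of 3286, 3227, and 3167 across the controls, of 2457, 2559, and 2603 across *Rbbp4* Ins/Ins libraries, and of 2699, 2654, and 2580.2 across those of *Rbbp4* Ins/Del. No mutant library reached a control library. For *Prc1*, the log2 fold change was -0.35 (standard error 0.034, edgeR adjusted p = 1.3e-11) for *Rbbp4* Ins/Ins and -0.29 (standard error 0.034, edgeR adjusted p = 1.2e-09) for *Rbbp4* Ins/Del. *Kif20a*, the motor MKLP2 of late mitosis, had normalized counts of 4746, 4660.4, and 4512 across the controls, of 3672, 3936, and 3927 across *Rbbp4* Ins/Ins libraries, and of 3957, 3864, and 3988 across those of *Rbbp4* Ins/Del. Its mutant libraries were also all below the controls. *Kif20a* had a log2 fold change of -0.27 (standard error 0.032, edgeR adjusted p = 1.7e-09) for *Rbbp4* Ins/Ins and -0.24 (standard error 0.032, edgeR adjusted p = 3e-08) for *Rbbp4* Ins/Del.

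Several of these genes share exon sequence with a gene on the opposite strand, and the strand setting of the count was not given in the sources used here. *Kif20a* shares 29.3% of its exonic length with *Cdc23*, which rose, with log2 fold changes of 0.34 (edgeR adjusted p = 1.1e-11) and 0.43 (edgeR adjusted p = 1.4e-14). *Prc1* shares 11.08% with *Rccd1*, which fell, with log2 fold changes of -0.76 (edgeR adjusted p = 3.6e-08) and -0.96 (edgeR adjusted p = 2.7e-10) from a control mean of 221 normalized counts, against 3227 for *Prc1*. The part of these overlaps in the values of *Kif20a* and *Prc1* was not tested. In all, 8 of the 35 genes share exon sequence with an opposite-strand gene, and for 3 of them, *Kif20a*, *Ube2c*, and *Prc1*, the shared part was over 10% of the exonic length.

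*Hmmr* and *Anln* were the spindle and cortex genes that rose in both mutants. *Hmmr* (chr11:40701395-40733422, minus strand), which encodes a hyaluronan receptor that also acts at the spindle, had normalized counts of 2977, 2742, and 3035 across the controls, of 3529, 3494, and 3800.4 across *Rbbp4* Ins/Ins libraries, and of 4094, 4326, and 4161 across those of *Rbbp4* Ins/Del. All lines were separated, with *Rbbp4* Ins/Del highest. The estimate for *Hmmr* was a log2 fold change of 0.30 (standard error 0.037, edgeR adjusted p = 3e-09) for *Rbbp4* Ins/Ins and 0.52 (standard error 0.037, edgeR adjusted p = 1e-15) for *Rbbp4* Ins/Del, and the second value was the largest rise among the 35 in that line. *Anln*, which encodes anillin of the cytokinetic ring, had normalized counts of 5571, 5030.2, and 5477 across the controls, of 6033, 6258, and 6222 across *Rbbp4* Ins/Ins libraries, and of 6475, 6712, and 6567 across those of *Rbbp4* Ins/Del. The order of the lines was the same as for *Hmmr*, without overlap. For *Anln*, the log2 fold change was 0.20 (standard error 0.032, edgeR adjusted p = 9.2e-07) for *Rbbp4* Ins/Ins and 0.30 (standard error 0.032, edgeR adjusted p = 1.8e-10) for *Rbbp4* Ins/Del. *Ckap2*, a spindle microtubule gene, rose in *Rbbp4* Ins/Ins alone by the limit used, with log2 fold changes of 0.15 (edgeR adjusted p = 4.6e-04) for *Rbbp4* Ins/Ins and 0.087 (edgeR adjusted p = 0.03) for *Rbbp4* Ins/Del. Without control library 2 the second of these passed the limit, at 0.12 (edgeR adjusted p = 0.00879).

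The remaining motor and spindle genes fell by little or did not pass the limit. *Kif2c*, a microtubule depolymerase, fell in both mutants, with log2 fold changes of -0.20 (edgeR adjusted p = 1.3e-05) for *Rbbp4* Ins/Ins and -0.18 (edgeR adjusted p = 6.9e-05) for *Rbbp4* Ins/Del. *Nusap1*, a microtubule-binding protein gene, also fell in both, with -0.13 (edgeR adjusted p = 0.0021) for *Rbbp4* Ins/Ins and -0.17 (edgeR adjusted p = 8.6e-05) for *Rbbp4* Ins/Del. Its fall in *Rbbp4* Ins/Ins was past the limit no longer without control library 1 (edgeR adjusted p = 0.031) or library 1 of *Rbbp4* Ins/Ins (0.0497). *Kif11*, the motor that keeps spindles bipolar, fell in both by small amounts, with -0.12 (edgeR adjusted p = 0.0017) for *Rbbp4* Ins/Ins and -0.099 (edgeR adjusted p = 0.0072) for *Rbbp4* Ins/Del. These calls were lost under more alternatives than those of any other of the 15 shared genes. In *Rbbp4* Ins/Ins the call was lost without control library 1 (edgeR adjusted p = 0.0409) or library 1 of *Rbbp4* Ins/Ins (0.0315). In *Rbbp4* Ins/Del it was lost without control library 1 (0.117), control library 3 (0.014), library 1 of *Rbbp4* Ins/Ins (0.0179), or library 1 (0.0161) or 2 (0.0747) of *Rbbp4* Ins/Del.

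*Aspm*, *Tpx2*, and *Kif23* showed no shared change in the mutants. *Aspm*, a spindle pole gene, had log2 fold changes of -0.13 (edgeR adjusted p = 0.0018) for *Rbbp4* Ins/Ins and 0.054 (edgeR adjusted p = 0.16) for *Rbbp4* Ins/Del. Its fall in *Rbbp4* Ins/Ins was past the limit no longer without control library 3 (edgeR adjusted p = 0.0195) or library 3 of *Rbbp4* Ins/Ins (0.017). *Tpx2*, whose protein activates Aurora A on the spindle, had log2 fold changes of -0.050 (edgeR adjusted p = 0.12) for *Rbbp4* Ins/Ins and 0.053 (edgeR adjusted p = 0.099) for *Rbbp4* Ins/Del. *Kif23*, a motor of the centralspindlin complex, had log2 fold changes of 0.028 (edgeR adjusted p = 0.46) for *Rbbp4* Ins/Ins and -0.003 (edgeR adjusted p = 0.95) for *Rbbp4* Ins/Del, and no direction is given for it in *Rbbp4* Ins/Del because its sign changed with the scaling.

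The chromosome proteins Ki-67 and topoisomerase IIα are both used as marks of proliferating cells. *Mki67* (chr7:135689784-135716361, minus strand), the Ki-67 gene, had normalized counts of 10102, 10987, and 10643 across the controls, of 7559.6, 7832, and 7587 across *Rbbp4* Ins/Ins libraries, and of 7441, 7213, and 7568 across those of *Rbbp4* Ins/Del. The mutant libraries were all below the controls by more than the spread within any line. *Mki67* had a log2 fold change of -0.47 (standard error 0.03, edgeR adjusted p = 1.1e-16) for *Rbbp4* Ins/Ins and -0.51 (standard error 0.03, edgeR adjusted p = 4.6e-18) for *Rbbp4* Ins/Del, and its mean fell by 27.6% and 30.0%. *Top2a*, the gene of the enzyme that untangles sister chromosomes, had normalized counts of 21514, 20826, and 21264 across the controls, of 20641, 21471, and 21161 across *Rbbp4* Ins/Ins libraries, and of 20170.0, 19627, and 20017 across those of *Rbbp4* Ins/Del. The control and *Rbbp4* Ins/Ins overlapped, and *Rbbp4* Ins/Del lay lower. The estimate for *Top2a* was a log2 fold change of -0.008 (standard error 0.026, edgeR adjusted p = 0.8) for *Rbbp4* Ins/Ins and -0.089 (standard error 0.026, edgeR adjusted p = 0.0024) for *Rbbp4* Ins/Del. The second of these was past the limit no longer without control library 1 (edgeR adjusted p = 0.0149), control library 3 (0.0132), or library 2 of *Rbbp4* Ins/Del (0.0263).

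The 35 genes are highly expressed in these cells. Their median mean count over the libraries was 2853 normalized counts, against 386 for all tested genes. As reads per kilobase of exon, scaled to library size (RPKM) in the control, the highest levels were those of *Cdc20* (166), *Top2a* (129), and *Ccnb2* (83.3), and the lowest those of *Ndc80* (11.5), *Nuf2* (8.65), and *Cdkn3* (3.76). The libraries of a line agreed closely, with a median coefficient of variation over the 35 genes of 2.92% for the control, 2.59% for *Rbbp4* Ins/Ins and 2.78% for *Rbbp4* Ins/Del. Changes as small as that of *Top2a* in *Rbbp4* Ins/Del, whose mean fell by 5.97%, could pass the limit at this spread.

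The mutant lines were then compared with each other, to find where the 2 allele pairs differed. Of the 35 genes, 4 were higher in *Rbbp4* Ins/Del than in *Rbbp4* Ins/Ins and 1 was lower, where 6.17% of all tested genes were higher and 4.64% lower. *Hmmr* was higher, with a log2 difference of 0.22 (standard error 0.036, 95% confidence interval 0.15 to 0.29, edgeR adjusted p = 2e-05). *Aspm* was also higher, by 0.18 (standard error 0.035, 95% confidence interval 0.11 to 0.25, edgeR adjusted p = 2.2e-04). The difference of *Plk1* was 0.14 (standard error 0.035, 95% confidence interval 0.066 to 0.20, edgeR adjusted p = 0.0052) and that of *Tpx2* was 0.10 (standard error 0.029, 95% confidence interval 0.046 to 0.16, edgeR adjusted p = 0.0098). *Bub1* was the gene that was lower, by -0.15 (standard error 0.031, 95% confidence interval -0.21 to -0.093, edgeR adjusted p = 3.4e-04). The calls of *Plk1* and *Tpx2* were close to the limit. The call of *Plk1* was lost without library 2 (edgeR adjusted p = 0.0347) or 3 (0.019) of *Rbbp4* Ins/Ins, or library 2 (0.0117) or 3 (0.0548) of *Rbbp4* Ins/Del. That of *Tpx2* was lost when any single mutant library was left out, with adjusted p-values from edgeR of 0.0431, 0.0446, and 0.013 without libraries 1 to 3 of *Rbbp4* Ins/Ins and 0.0408, 0.0478, and 0.0175 without libraries 1 to 3 of *Rbbp4* Ins/Del, and without control library 1 (0.0102). For the other 30 genes the estimates lay between -0.081 and 0.11 and the bounds of their 95% confidence intervals between -0.44 and 0.28, the widest being those of *Cdkn3*. At an unadjusted p under 0.05, 5 of these 30 differed, and the share of all tested genes at this limit was not counted.

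*Cdkn3* and *Dlgap5*, the genes that fell most, are the only 2 of the 35 on chromosome 14, where they lie 0.637 Mb apart. Many tested genes of this chromosome were lower in both mutants, and most of these lay in a segment that holds both genes. Of its 461 tested genes, 63.6% fell in *Rbbp4* Ins/Ins and 63.1% fell in *Rbbp4* Ins/Del, with median log2 fold changes of -0.58 and -0.60. No other chromosome stood as low. The medians of the other autosomes lay from -0.047 to 0.054 for *Rbbp4* Ins/Ins and from -0.065 to 0.039 for *Rbbp4* Ins/Del, and those of chromosome X were -0.20 in both. Within chromosome 14 the values were uneven. From 2 Mb before *Cdkn3* to 42 Mb after it, bounds that were set after the values were seen, the 264 tested genes had medians of -0.91 and -0.93, and 223 and 215 of them fell. The 145 tested genes before this segment had medians of -0.031 and -0.077, with 47 and 52 lower, and the 52 after it had -0.16 and -0.17, with 23 and 24 lower. Around *Cdkn3*, within 5 Mb on either side, the 40 other tested genes had a median log2 fold change of -0.86 in both mutants, and 31 and 27 of them fell. Around *Dlgap5* the 53 other tested genes had medians of -0.88 and -0.87, and 42 and 38 fell. The value of *Dlgap5* was thus close to that of its neighbours, and that of *Cdkn3* was lower. The part of this segment in their values was not tested. Without them, 13 of the 33 remaining genes fell in both mutants (39.4%) and 5 rose (15.2%), beside 26.7% and 25.6% of all tested genes. None of the 33 changed by more than 2-fold.

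**Figure D3:**
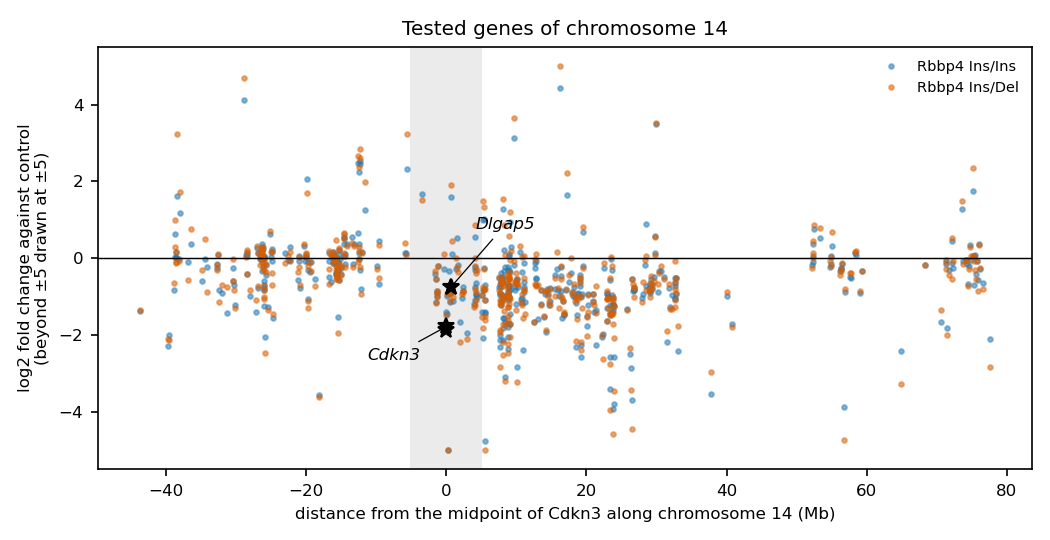
Log2 fold change against control of the 461 tested genes of chromosome 14 in both mutants, by distance in Mb from the midpoint of *Cdkn3*. Stars mark *Cdkn3* and *Dlgap5*, and the shaded band is 5 Mb on either side of *Cdkn3*. Most genes lie below 0 in the band and on to about 42 Mb after *Cdkn3*, while genes before the band and at the far end of the chromosome scatter closer to 0.

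A list of 56 further mitotic genes, all tested, was counted in the same way. In *Rbbp4* Ins/Ins 17 fell and 10 rose, and in *Rbbp4* Ins/Del 17 fell and 14 rose. In both mutants 15 fell (26.8%) and 10 rose (17.9%), beside 26.7% and 25.6% of all tested genes. The share that fell was thus near that of all tested genes. The median log2 fold changes of the 56 genes were -0.031 and 0.011. *Pimreg*, a mitotic regulator gene, had a mean normalized count of 350.3 ± 32.6 (SD, n = 3) for the control, 185 ± 29.1 for *Rbbp4* Ins/Ins, and 164 ± 14.3 for *Rbbp4* Ins/Del. For *Pimreg*, the log2 fold change was -0.90 (standard error 0.097, edgeR adjusted p = 1.5e-10) for *Rbbp4* Ins/Ins and -1.10 (standard error 0.1, edgeR adjusted p = 1.5e-12) for *Rbbp4* Ins/Del. *Pttg1*, the securin gene, had log2 fold changes of -0.93 (edgeR adjusted p = 1.7e-15) for *Rbbp4* Ins/Ins and -0.82 (edgeR adjusted p = 4.4e-14) for *Rbbp4* Ins/Del. *Ckap5*, the gene of a microtubule polymerase, fell, with -0.59 (edgeR adjusted p = 1.6e-19) for *Rbbp4* Ins/Ins and -0.67 (edgeR adjusted p = 2.2e-21) for *Rbbp4* Ins/Del, and the kinase gene *Pbk*, which lies on chromosome 14, with -0.72 (edgeR adjusted p = 1.4e-10) for *Rbbp4* Ins/Ins and -0.51 (edgeR adjusted p = 2e-07) for *Rbbp4* Ins/Del.

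Among the genes of S phase entry, rises outnumbered falls. Of 29 genes of the G1/S transition, which are also DREAM and E2F targets, 16 rose and 0 fell in *Rbbp4* Ins/Ins by edgeR at the limit, and 15 rose and 2 fell in *Rbbp4* Ins/Del. At an unadjusted p under 0.05, 1 (*Mcm4*) was lower in *Rbbp4* Ins/Ins by edgeR, and DESeq2 called 0 lower at its adjusted p limit. In both mutants 13 rose (44.8%), beside 25.6% of all tested genes. Of all tested genes, 29.0% rose and 29.4% fell in *Rbbp4* Ins/Ins, and 30.6% rose and 31.9% fell in *Rbbp4* Ins/Del. The median log2 fold changes of the 29 G1/S genes were 0.16 and 0.12. *E2f2*, an activating E2F factor, had a mean normalized count of 178 ± 5.32 (SD, n = 3) for the control, 431 ± 47.2 for *Rbbp4* Ins/Ins, and 521 ± 24.1 for *Rbbp4* Ins/Del. It rose over 2-fold, with log2 fold changes of 1.29 (edgeR adjusted p = 2.2e-16) for *Rbbp4* Ins/Ins and 1.55 (edgeR adjusted p = 2.2e-19) for *Rbbp4* Ins/Del. *Rrm2*, a subunit of ribonucleotide reductase, rose with log2 fold changes of 0.47 (edgeR adjusted p = 3.9e-17) for *Rbbp4* Ins/Ins and 0.50 (edgeR adjusted p = 5.4e-18) for *Rbbp4* Ins/Del, the origin licensing gene *Cdc6* with 0.38 (edgeR adjusted p = 3.2e-09) for *Rbbp4* Ins/Ins and 0.40 (edgeR adjusted p = 6.6e-10) for *Rbbp4* Ins/Del, and the DNA polymerase alpha gene *Pola1* with 0.32 (edgeR adjusted p = 1.6e-10) for *Rbbp4* Ins/Ins and 0.36 (edgeR adjusted p = 7.7e-12) for *Rbbp4* Ins/Del.

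**Figure D4:**
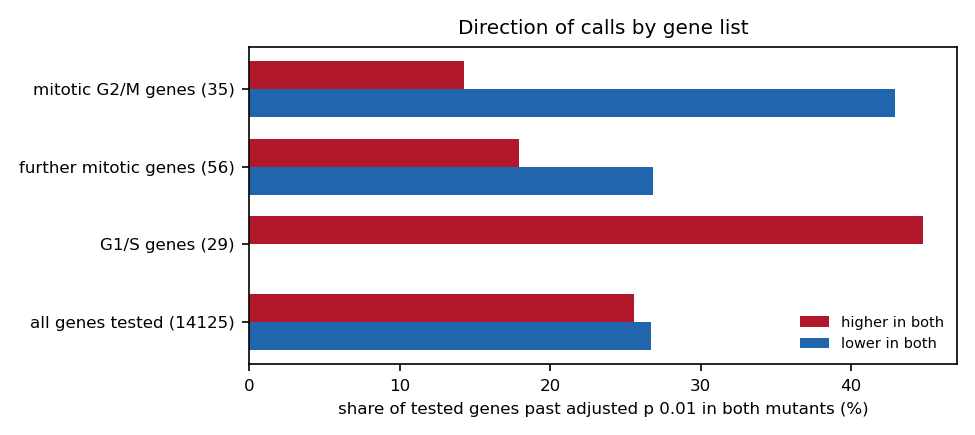
Share of tested genes, in percent, that rose or fell in both mutants at an adjusted p of at most 0.01, for the 35 mitotic G2/M genes, 56 further mitotic genes, 29 G1/S genes, and all 14125 tested genes. Of the 35 genes 42.9% fell in both, where 26.7% of all tested genes did, and of the G1/S genes 44.8% rose in both, where 25.6% of all did. The difference between these shares was not tested.

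The subunits of DREAM, MuvB, and the B-MYB complex were measured at the level of RNA. Of 13 such genes, 7 rose and 3 fell in *Rbbp4* Ins/Ins, where 29.0% of all tested genes rose and 29.4% fell. In *Rbbp4* Ins/Del 6 of the 13 rose and 2 fell, against 30.6% and 31.9% of all tested genes. In both mutants 6 rose (46.2%) and 2 fell (15.4%), beside 25.6% and 26.7% of all tested genes. *Mybl2*, which encodes B-MYB, had normalized counts of 8734, 8708, and 8526 across the controls, of 12306, 11668, and 12168 across *Rbbp4* Ins/Ins libraries, and of 12755, 12506, and 12283 across those of *Rbbp4* Ins/Del. All mutant libraries were above all controls. *Mybl2* had a log2 fold change of 0.48 (standard error 0.028, edgeR adjusted p = 4.4e-18) for *Rbbp4* Ins/Ins and 0.53 (standard error 0.028, edgeR adjusted p = 1.1e-19) for *Rbbp4* Ins/Del. The pocket protein genes *Rbl1* (p107) and *Rbl2* (p130) also rose, with 0.38 (edgeR adjusted p = 1.4e-07) for *Rbbp4* Ins/Ins and 0.52 (edgeR adjusted p = 5.9e-11) for *Rbbp4* Ins/Del for *Rbl1* and 0.52 (edgeR adjusted p = 3.6e-06) for *Rbbp4* Ins/Ins and 0.54 (edgeR adjusted p = 1.6e-06) for *Rbbp4* Ins/Del for *Rbl2*. *E2f5*, a repressive E2F gene, fell with -0.52 (edgeR adjusted p = 2.3e-08) for *Rbbp4* Ins/Ins and -0.75 (edgeR adjusted p = 5.9e-12) for *Rbbp4* Ins/Del, whereas *E2f4* had -0.049 (edgeR adjusted p = 0.22) for *Rbbp4* Ins/Ins and -0.10 (edgeR adjusted p = 0.011) for *Rbbp4* Ins/Del.

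The core MuvB genes other than *Rbbp4* changed little. *Lin52* had log2 fold changes of 0.27 (edgeR adjusted p = 0.0093) for *Rbbp4* Ins/Ins and 0.28 (edgeR adjusted p = 0.0062) for *Rbbp4* Ins/Del, and *Lin54*, whose protein contacts the CHR, had 0.15 (edgeR adjusted p = 0.006) for *Rbbp4* Ins/Ins and 0.18 (edgeR adjusted p = 0.0019) for *Rbbp4* Ins/Del. Both rose by small amounts in each mutant. *Lin9* had 0.012 (edgeR adjusted p = 0.88) for *Rbbp4* Ins/Ins and 0.044 (edgeR adjusted p = 0.54) for *Rbbp4* Ins/Del and *Lin37* had 0.053 (edgeR adjusted p = 0.6) for *Rbbp4* Ins/Ins and 0.018 (edgeR adjusted p = 0.86) for *Rbbp4* Ins/Del, and neither passed the limit. The DP genes moved apart, with 0.10 (edgeR adjusted p = 0.0098) for *Rbbp4* Ins/Ins and 0.18 (edgeR adjusted p = 3.1e-05) for *Rbbp4* Ins/Del for *Tfdp1* and -0.16 (edgeR adjusted p = 2e-04) for *Rbbp4* Ins/Ins and -0.10 (edgeR adjusted p = 0.0095) for *Rbbp4* Ins/Del for *Tfdp2*. *Mybl1*, the gene for A-MYB, had 0.26 (edgeR adjusted p = 0.0014) for *Rbbp4* Ins/Ins and 0.19 (edgeR adjusted p = 0.017) for *Rbbp4* Ins/Del. *Rbbp4* had log2 fold changes of -0.84 (edgeR adjusted p = 1.8e-25) for *Rbbp4* Ins/Ins and 0.050 (edgeR adjusted p = 0.11) for *Rbbp4* Ins/Del.

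The CDK inhibitors, which hold pocket proteins in the form that joins DREAM, included genes that rose strongly. Of 7 genes, 3 rose (42.9%) and 1 fell (14.3%) in both mutants, beside 25.6% and 26.7% of all tested genes. *Cdkn1a*, the p21 gene, had normalized counts of 513, 505, and 485 across the controls, of 1574, 1514, and 1567 across *Rbbp4* Ins/Ins libraries, and of 1476, 1639.5, and 1597 across those of *Rbbp4* Ins/Del. All mutant libraries lay far above all controls. The estimate for *Cdkn1a* was a log2 fold change of 1.63 (standard error 0.051, edgeR adjusted p = 6.1e-27) for *Rbbp4* Ins/Ins and 1.65 (standard error 0.051, edgeR adjusted p = 3.3e-27) for *Rbbp4* Ins/Del. *Cdkn2a*, which encodes p16 and p19Arf, had a mean normalized count of 95.1 ± 6.43 (SD, n = 3) for the control, 208 ± 9.31 for *Rbbp4* Ins/Ins, and 251 ± 7.64 for *Rbbp4* Ins/Del and rose, with log2 fold changes of 1.12 (edgeR adjusted p = 7.3e-12) for *Rbbp4* Ins/Ins and 1.39 (edgeR adjusted p = 5.5e-15) for *Rbbp4* Ins/Del. *Cdkn1b*, the p27 gene, rose by 0.41 (edgeR adjusted p = 2.9e-08) for *Rbbp4* Ins/Ins and 0.29 (edgeR adjusted p = 1.6e-05) for *Rbbp4* Ins/Del, and *Cdkn1c*, the imprinted p57 gene, fell, with -0.35 (edgeR adjusted p = 2.4e-06) for *Rbbp4* Ins/Ins and -0.21 (edgeR adjusted p = 0.0013) for *Rbbp4* Ins/Del. *Cdkn2b*, *Cdkn2c*, and *Cdkn2d* did not pass the limit, with -0.28 for *Rbbp4* Ins/Ins and -0.28 for *Rbbp4* Ins/Del for *Cdkn2b*, -0.24 for *Rbbp4* Ins/Ins and 0.36 for *Rbbp4* Ins/Del for *Cdkn2c*, and 0.033 for *Rbbp4* Ins/Ins and -0.15 for *Rbbp4* Ins/Del for *Cdkn2d*.

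**Figure D5:**
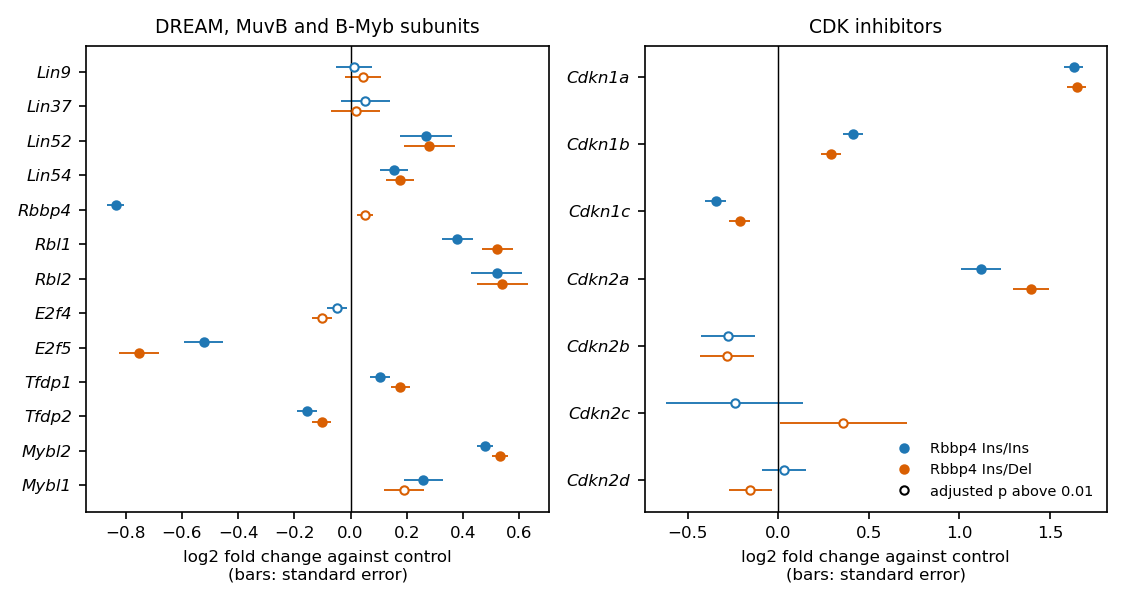
Log2 fold change against control, with its standard error as a bar, for 13 subunit genes of DREAM, MuvB, and the B-MYB complex (left) and 7 CDK inhibitor genes (right). Filled points had an adjusted p of at most 0.01. *Rbbp4* lies at -0.84 in *Rbbp4* Ins/Ins alone, *Mybl2* near 0.5 in both mutants, and *Cdkn1a* near 1.6 in both.

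The RNA of markers of ESCs and of other cell types differed between the lines, in both directions. The counts below stand beside all tested genes, of which 29.0% rose and 29.4% fell in *Rbbp4* Ins/Ins. In *Rbbp4* Ins/Del 30.6% rose and 31.9% fell, and in both mutants 25.6% rose and 26.7% fell. The 8 ESC markers, among them *Pou5f1*, *Nanog*, and *Sox2*, summed to 5387 to 5620 CPM in the control and 6686 to 6850 in the mutant libraries, and were abundant in every library. Of the 8, 6 rose and 1 fell in *Rbbp4* Ins/Ins, and 5 rose in *Rbbp4* Ins/Del. The named ones differed, with log2 fold changes of 0.41 (edgeR adjusted p = 1.6e-15) for *Rbbp4* Ins/Ins and 0.43 (edgeR adjusted p = 3.8e-16) for *Rbbp4* Ins/Del for *Nanog*, 0.12 (edgeR adjusted p = 1.9e-04) for *Rbbp4* Ins/Ins and 0.017 (edgeR adjusted p = 0.59) for *Rbbp4* Ins/Del for *Sox2*, and -0.12 (edgeR adjusted p = 2e-04) for *Rbbp4* Ins/Ins and -0.032 (edgeR adjusted p = 0.3) for *Rbbp4* Ins/Del for *Pou5f1*, and the largest rise was that of *Zfp42*, with 0.90 (edgeR adjusted p = 1.4e-26) for *Rbbp4* Ins/Ins and 1.06 (edgeR adjusted p = 6.3e-29) for *Rbbp4* Ins/Del. The 9 fibroblast markers summed to 34.6 to 40.7 CPM per control library, 15.3 to 16.5 for *Rbbp4* Ins/Ins and 19.5 to 21.3 for *Rbbp4* Ins/Del. Of the 5 that were tested, 4 fell and *Thy1* rose. *Thy1* had a mean normalized count of 45.7 ± 1.1 (SD, n = 3) for the control, 246 ± 13.4 for *Rbbp4* Ins/Ins, and 312 ± 12.8 for *Rbbp4* Ins/Del. In the mutants most of the fibroblast marker sum came from *Thy1*. At most 3 reads in each library were counted for 1 of the 9 markers of the control, 5 of those of *Rbbp4* Ins/Ins and 4 of those of *Rbbp4* Ins/Del. The collagen gene *Col1a1*, a defining marker of fibroblasts, had 272 to 311 normalized counts per control library and 12.4 to 24.5 per mutant library. The 8 primitive endoderm markers summed to 94.6 to 102 CPM per control library, 92.5 to 99.5 for *Rbbp4* Ins/Ins and 128 to 129 for *Rbbp4* Ins/Del. Most of this sum came from *Lama1*, with a mean normalized count of 1398 ± 55.4 (SD, n = 3) for the control, 1484 ± 62.6 for *Rbbp4* Ins/Ins, and 2013 ± 21.4 for *Rbbp4* Ins/Del, and the other markers went both ways. Of the 7 tested, 1 rose and 2 fell in *Rbbp4* Ins/Ins, and 5 rose and 2 fell in *Rbbp4* Ins/Del. *Sox7* rose, with log2 fold changes of 1.63 (edgeR adjusted p = 2.4e-08) for *Rbbp4* Ins/Ins and 2.22 (edgeR adjusted p = 1.6e-12) for *Rbbp4* Ins/Del. *Dab2* fell, with -1.35 (edgeR adjusted p = 1.4e-14) for *Rbbp4* Ins/Ins and -1.29 (edgeR adjusted p = 3.4e-14) for *Rbbp4* Ins/Del, and so did *Gata4*, with -1.56 (edgeR adjusted p = 5e-06) for *Rbbp4* Ins/Ins and -1.05 (edgeR adjusted p = 4.1e-04) for *Rbbp4* Ins/Del. *Gata4*, which fell, and *Sox7*, which rose, both lie in the lowered segment of chromosome 14 described above. The 60 other tested genes within 5 Mb of *Gata4* had medians of -0.93 and -0.95. The part of this segment in the values of *Gata4* and *Sox7* was not tested. Whether fibroblasts or primitive endoderm cells were present was not measured. The part of any such cells in the values of the mitotic genes was not tested.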

How the data were processed

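Messenger RNA libraries (Kapa mRNA HyperPrep) were read in pairs of 50 bp, and the authors mapped the reads to mm10 with STAR 2.7.3 and counted them per gene with HTSeq, as the submitters' processing notes state. Their deposited counts are whole numbers, 1 per gene symbol and library, and were not normalized. The gene annotation, HTSeq version, and strand setting were not given in the sources used here. The study tested with DESeq2 1.22.2.

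TMM factors, the filter filterByExpr, and the quasi-likelihood fit of all 9 libraries with 3 groups came from edgeR 4.0.16 under R 4.3.3. A standard error is the size of the log2 fold change over the root of F. Normalized counts are counts over the effective library size, multiplied by its mean over libraries. Coordinates and exonic lengths come from GENCODE M21 on GRCm38 (mm10), promoters from RefSeq. Tables were made with Python 3.11.15 and pandas 2.3.3. The fit was tested on simulated counts with far fewer changed genes than were called here. That test therefore does not cover scaling under as many changes as in these libraries. Alternatives were DESeq2 1.42.0, its size factors in edgeR, total counts, no filter, only the groups compared, a replicate block, each library left out, a limit of 0.05, and, added after the data were seen, the genes without chromosome 14.

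The 35 genes and the other lists were chosen with earlier results of these data known. By rule, all 35 were named, with library values for the 12 shared changes of largest mean size and for *Ccnb1*, *Cdk1*, *Plk1*, *Aurka*, *Bub1*, *Top2a*, *Mki67*, and *Foxm1*. All DREAM subunits and CDK inhibitors were named, and the 4 genes of largest shared change on the further mitotic and G1/S lists. Pairs of libraries within a line had a chi-square of 1.91 to 4.87 per gene, so none was a copy of another. The highest values were those of control library 2, with 4.87 against control library 1 and 4.10 against control library 3. No column of values lacked a sample.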

Additional observations from a re-analysis of the deposited data

Results flagged for a closer look

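The direct comparison of the mutant lines found 5 of the 35 genes whose change against control differed between them, by the quasi-likelihood test of edgeR, adjusted over all tested genes by the Benjamini-Hochberg method. On the log2 scale, as *Rbbp4* Ins/Del minus *Rbbp4* Ins/Ins, the difference was 0.22 for *Hmmr* (edgeR adjusted p = 2e-05), 0.18 for *Aspm* (0.00022), 0.14 for *Plk1* (0.0052), 0.10 for *Tpx2* (0.0098), and -0.15 for *Bub1* (0.00034). Of all tested genes, 6.17% were higher and 4.64% lower in this comparison. The call of *Tpx2* was lost when any single mutant library was left out, and that of *Plk1* without some of them. Among the regulators and the S phase genes named here, *Rbbp4* itself differed by 0.89 (edgeR adjusted p = 4.1e-24), with normalized counts of 9932, 9965, and 10117 across the controls, of 5485, 5551, and 5776 across *Rbbp4* Ins/Ins libraries, and of 10129, 10344, and 10603 across those of *Rbbp4* Ins/Del. *E2f2* differed by 0.27 (edgeR adjusted p = 0.0064), and it was higher than the control in all 6 mutant libraries.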

How the results depend on the processing

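Across 15 alternatives to the fit, 3 of the 23 calls among the 35 genes in *Rbbp4* Ins/Ins and 4 of the 23 in *Rbbp4* Ins/Del were lost in at least 1, and 2 and 3 other calls were gained. Each library that did this is named beside its gene. Other settings also lost the call of *Kif11* in *Rbbp4* Ins/Del (DESeq2, its size factors in edgeR, and only the groups compared) and of *Top2a* (only the groups compared). With total counts *Cdca3* (edgeR adjusted p = 0.00905) and *Cenpe* (0.00456) gained a call in *Rbbp4* Ins/Del, and *Tpx2* lost its call between the mutants (0.0104). With no filter *Nek2* gained a call in *Rbbp4* Ins/Ins (0.00537) and *Tpx2* lost its own (0.0189). The sign of *Kif23* in *Rbbp4* Ins/Del changed to 0.006 with the size factors of DESeq2, to 0.006 with DESeq2, and to 0.011 with only the groups compared. With each library left out it ranged from -0.021 to 0.018, and *Top2a* in *Rbbp4* Ins/Ins from -0.019 to 0.020. The causes were not tested. The median of the direct difference was 0.031 with the size factors of DESeq2, against 0.020, and ranged from 0.014 to 0.033 with each library left out. The median in *Rbbp4* Ins/Ins ranged from -0.12 to -0.046 in this way, and the number of genes higher in the direct comparison from 2 to 4. An adjusted p limit of 0.05 admits more genes by construction. At that limit 7 of the 35 were higher and 2 lower in the direct comparison, and 8 rose in both mutants. The shares of all tested genes at that limit were not counted, so no reading of these counts is given. Libraries with the same number did not deviate together (correlations of -0.028 to 0.056). With the replicate block, 6 rose and 17 fell in *Rbbp4* Ins/Ins, 7 rose and 16 fell in *Rbbp4* Ins/Del, and *Tpx2* alone lost its call in the direct comparison, leaving 3 higher. No scaling moved the median of all tested genes by over 0.1. Depth limits *Cdkn3*, whose few reads give it the widest interval.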
